A study of Mus musculus with 9 samples.

Results

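Kallikreins, serpins, Wfdc proteins and Spink proteins are secreted or intracellular proteases and protease inhibitors. They were taken as all non-control probes whose gene name on the array starts with Klk, Serpin, Wfdc or Spink, leaving out Serpinf1. This rule gave 111 of 41174 probes, for 88 of 27669 gene or transcript names: 25 kallikreins, 53 serpins, 7 Wfdc genes and 3 Spink genes. The arrays held RNA of prostate cells of BL6 mice, separated by FACS (fluorescence-activated cell sorting). Marker-positive cells, named stem cells by the submitters, carried CD44, CD133, Sca-1 and CD117 and lacked lineage markers (3 arrays). Marker-negative cells, named non-stem cells, carried none of these 4 proteins and also lacked lineage markers (6 arrays). Each array carried amplified RNA of sorted cells in Cy5 beside a commercial mixture of mouse RNA in Cy3, with no dye swap. All levels are log2 ratios of Cy5 over Cy3, so a value compares 1 probe between arrays and never 1 gene with another.

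Marker-positive replicate 3 stood apart from its group. Cy5 was well above background for 45.5% of its probes, against 67.3% and 69.3% on marker-positive replicates 1 and 2 and 47.5% to 69.5% on the marker-negative arrays. Over the 65 tested member genes its log2 ratios correlated at 0.276 and 0.373 with those of replicates 1 and 2, which reached 0.935 with each other. The mean log2 ratio of the basal epithelial markers was 2.07, 2.55 and 0.26 on marker-positive replicates 1 to 3, against 0.14 to 1.83 on marker-negative arrays. Luminal epithelial markers averaged 2.53, 2.57 and -0.08 on the marker-positive arrays, against 2.70 to 4.25 on marker-negative arrays. Nothing in the labels ties the arrays to different mice, so the p-values speak only to the variation among 9 arrays, some of which may be technical, and precision is bounded by that number. In sorted bulk RNA, fewer cells of a type and less RNA per cell cannot be told apart.

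Tissue kallikreins are serine proteases that are secreted as inactive precursors and cleaved into active enzymes, and several of the human ones are classic prostate products. Serpins inhibit proteases by a trap: the protease cuts an exposed loop and becomes locked to the serpin, although some serpins act as chaperones or hormone carriers instead. Wfdc proteins carry the whey acidic protein fold with its paired disulfide bonds, which in several members blocks serine proteases, and many are made by epithelia of the male tract. Spink proteins carry Kazal domains that plug the active site of trypsin-like enzymes. Of the kallikrein genes 23 had probes on chromosome 7, and the serpins lay mostly on chromosomes 12 (19 genes), 1 (14) and 13 (12). Of the Wfdc genes 6 lay on chromosome 2.

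Promoter sequence is shown for Spink2, the 1 member that passed the test between the groups, and for Wfdc15b and Wfdc2, the tested members whose marker-negative arrays varied most (SD 3.06 and 1.91, n = 6). Each sequence covers the 250 bases before the most upstream transcription start that RefSeq lists on GRCm38.p6, read 5′ to 3′ on the strand of the gene. The coordinates are chr5:77211472-77211721 (minus strand) for Spink2, chr2:164221664-164221913 (minus strand) for Wfdc15b and chr2:164562465-164562714 (plus strand) for Wfdc2. Capitals mark matches, on either strand, to the steroid receptor hexamer TGTTCT, to the TATA box letters TATAAA or to the GC box GGGCGG.
Spink2: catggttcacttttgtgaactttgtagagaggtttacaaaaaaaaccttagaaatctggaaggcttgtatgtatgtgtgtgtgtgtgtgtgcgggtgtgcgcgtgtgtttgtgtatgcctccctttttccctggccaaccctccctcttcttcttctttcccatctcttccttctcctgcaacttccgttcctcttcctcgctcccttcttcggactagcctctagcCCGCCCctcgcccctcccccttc
Wfdc15b: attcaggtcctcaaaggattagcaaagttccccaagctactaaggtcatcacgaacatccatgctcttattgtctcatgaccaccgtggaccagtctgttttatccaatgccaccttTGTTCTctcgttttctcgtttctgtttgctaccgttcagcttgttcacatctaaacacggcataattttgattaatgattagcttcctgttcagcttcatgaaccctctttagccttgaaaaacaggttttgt
Wfdc2: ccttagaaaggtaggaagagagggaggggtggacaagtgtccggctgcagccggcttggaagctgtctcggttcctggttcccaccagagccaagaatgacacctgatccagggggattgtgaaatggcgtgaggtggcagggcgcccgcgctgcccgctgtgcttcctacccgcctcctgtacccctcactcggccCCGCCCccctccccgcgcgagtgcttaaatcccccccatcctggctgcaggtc
The capitals are a GC box on the opposite strand in Spink2, starting 23 bases before the start, and in Wfdc2, at 53 bases, and a TGTTCT on the gene's strand in Wfdc15b, at 133 bases. Among 32851 RefSeq promoter windows of the same length, 32.7% held GGGCGG, 16.1% TGTTCT and 12.4% TATAAA on either strand. A match is a run of letters and no measured binding site.

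Of the tested members 1 was called, a share like that of all genes. Of the 88 genes, 65 had a probe that cleared the Cy5 background on 3 arrays or more and entered the test, 36 of them on all 9 arrays. Of the other 23, no probe that the naming rule took was well above background on any array for 16. Spink2 was the only member called at a limma adjusted p under 0.05, and it was higher in marker-positive cells. That is 1.54% of the tested members, where 1.57% of all 19849 tested genes were called higher. None was called lower by limma, against 1.67% of all genes. The median difference, marker-positive minus marker-negative, was -0.05 over the members and -0.01 over all tested genes. In 54 of the 65 members the difference was under 1 in size, as it was in 82.3% of all tested genes.

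**Figure D1:**
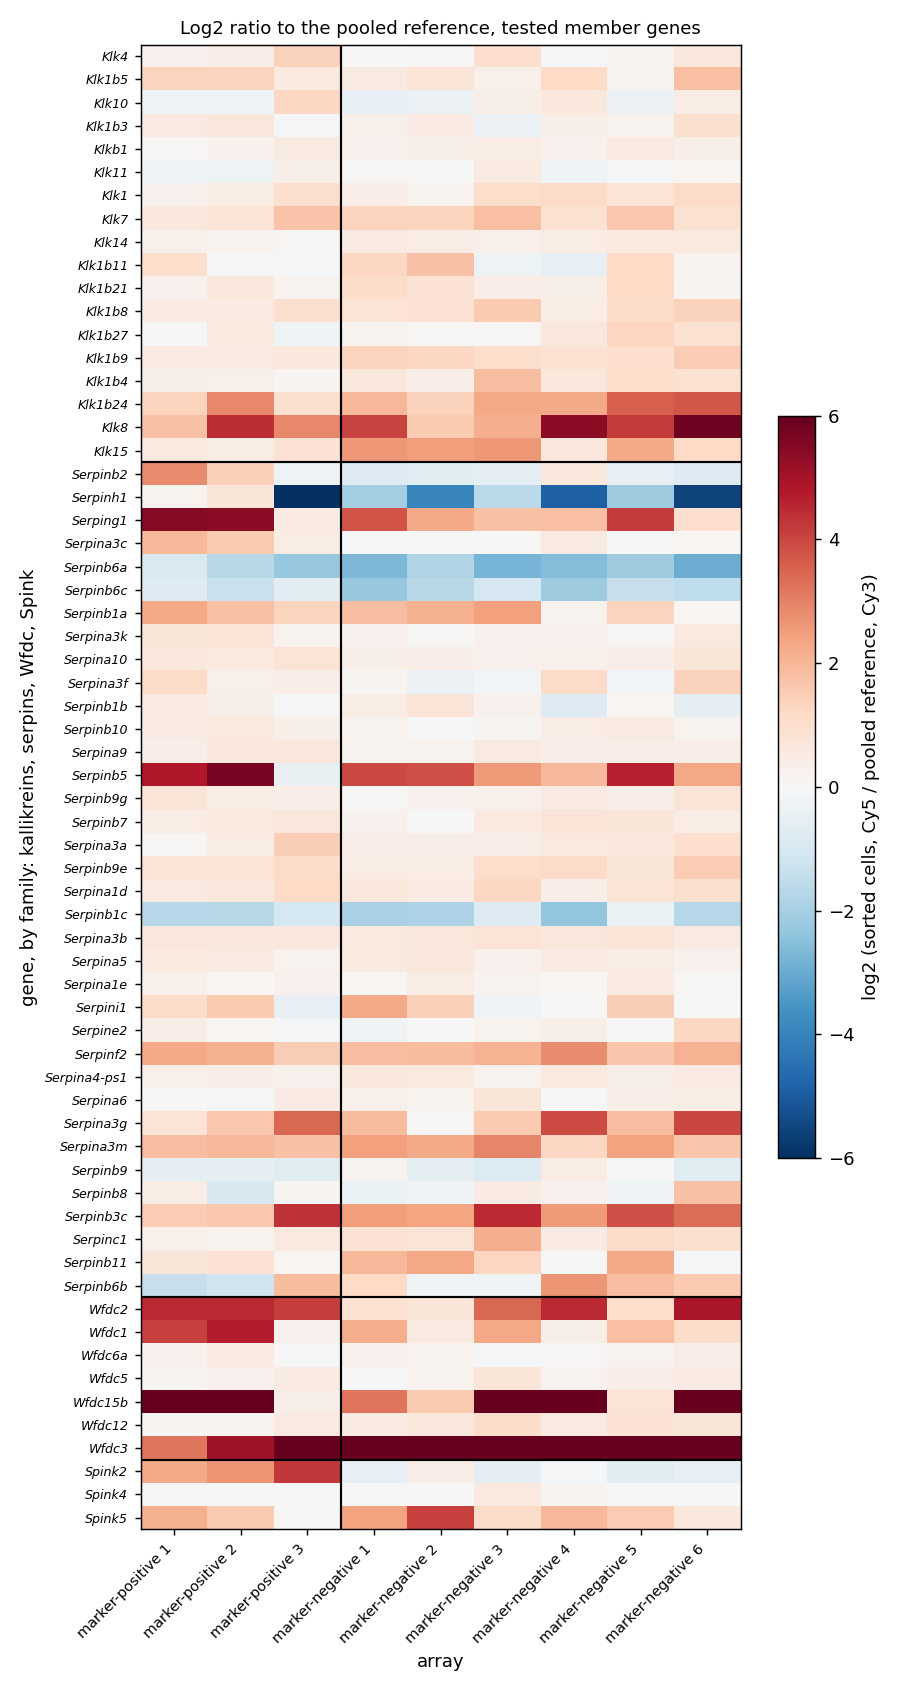
Log2 ratio of sorted cells (Cy5) over the pooled mouse RNA (Cy3) for 64 of the 65 tested members, 1 row a gene in blocks of kallikreins, serpins, Wfdc and Spink, and 1 column an array, with the 3 marker-positive arrays left of the 6 marker-negative ones. Colours stop at -6 and 6. Marker-positive replicate 3 differs from its group at Serpinh1, Serping1 and Serpinb5, and in Wfdc1 and Wfdc15b.

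Spink2 encodes a Kazal inhibitor best known from sperm, where it holds the protease acrosin in check. Its log2 ratios were 2.30, 2.63 and 4.25 on the marker-positive arrays, while on the marker-negative arrays the lowest was -0.63, the median -0.48 and the highest 0.41. Every marker-positive array lay above every marker-negative one, which no other tested member showed at the brightest probe that stands for it, while 5.14% of all tested genes did. Here replicate 3 was the highest of its group. The mean was 3.06 ± 1.04 (SD, n = 3) in marker-positive and -0.29 ± 0.40 (SD, n = 6) in marker-negative cells. The difference was 3.35 (SE 0.44, limma adjusted p = 0.00495), which is 10.2-fold. The probe (chromosome 5, 77136506 to 77136565, build mm7) was well above background on 3 of 3 marker-positive and 4 of 6 marker-negative arrays. Within slide 1 the groups differed by 2.78 and within slide 2 by 2.45. With slide as a fixed block the difference was 2.59 (limma adjusted p = 0.0495), and on slides 1 and 2 alone it was 2.59 without passing (limma adjusted p = 0.0859), a fit in which 0% of all genes was called.

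Some mast cell and macrophage markers were called in the same direction as Spink2, and some T and NK cell markers in the opposite one. Of 8 mast cell markers 3 were higher in marker-positive cells and none lower (limma), and the list averaged 3.44 to 3.96 on marker-positive and 0.19 to 2.62 on marker-negative arrays. The 2.62 was on marker-negative replicate 3, where Spink2 was -0.53. Of 8 macrophage markers 3 were higher, and the list averaged 3.88 to 5.01 on marker-positive and -0.04 to 2.82 on marker-negative arrays. No marker-negative array had the macrophage receptors Mrc1 or Cd163 well above background. The other macrophage markers (Csf1r, Adgre1, Cd68, Lyz2, C1qa and C1qb) were well above it on 6 of 6 marker-negative arrays. C1qa and C1qb differed by only 0.47 and 0.75 (limma adjusted p = 0.763 and 0.696). Of 10 T and NK cell markers 6 were lower in marker-positive cells, where the list averaged -0.05 to 0.96, against 2.10 to 4.94 on marker-negative arrays. Of 5 measured neutrophil markers and 4 B cell markers none was called by limma, with median differences of 0.53 and -0.23. Other lists held calls as well. Lower by limma were 3 of 9 measured secretory prostate, 2 of 3 erythroid and 1 of 12 luminal markers. Higher were 1 of 10 basal, 1 of 7 endothelial and 1 of 2 platelet markers. The part of these cells in the Spink2 difference was not tested.

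Of the Kazal genes outside this call, Spink5 and Spink4 did not pass and Spink8 was called lower. Spink5, whose product restrains kallikreins in the skin, had log2 ratios of 2.14, 1.56 and 0.06 on marker-positive arrays, against a lowest of 0.62, a median of 1.77 and a highest of 4.11 on marker-negative arrays. The groups overlapped, and the difference was -0.71 (SE 0.72, limma adjusted p = 0.648). Spink4, an intestinal Kazal gene, stayed between -0.04 and 0.59 on all arrays (difference -0.11, limma adjusted p = 0.765). Spink8 is a Kazal gene by its RefSeq symbol, but its probe carries a clone name and so fell outside the rule. Its log2 ratios were 5.16, 5.18 and 4.34 on marker-positive arrays, against a lowest of 6.53, a median of 6.75 and a highest of 7.07 on marker-negative arrays. The groups did not overlap, and Spink8 was lower in marker-positive cells, by -1.87 (SE 0.29, limma adjusted p = 0.00984). Spink2 and Spink8 were thus called in opposite directions.

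**Figure D2:**
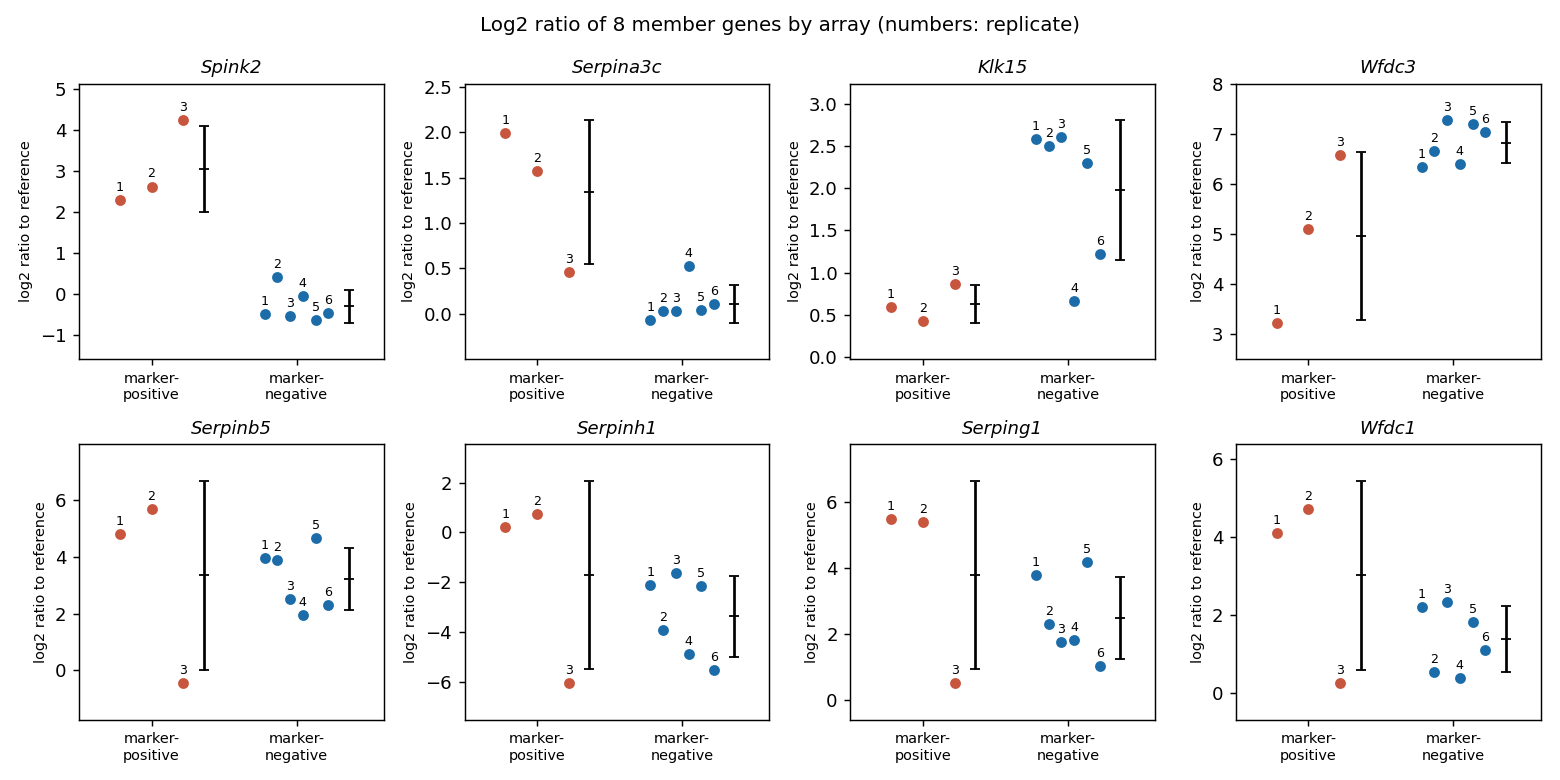
Log2 ratio of sorted cells over the pooled mouse RNA for 8 members, 1 point an array with its replicate number, marker-positive in red at the left of each panel and marker-negative in blue. Bars give the mean and SD of each group (n = 3 and n = 6). Spink2 separates the groups, while in the lower row marker-positive replicate 3 lies below replicates 1 and 2.

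Kallikrein probes leaned lower in marker-positive cells by small amounts, and no kallikrein was called. Of the 18 tested kallikreins 14 had a negative difference, where 51.2% of all tested genes did, and the median was -0.29. Their differences ran from -1.35 to 0.37. Within slide 1 the difference was negative in 14 and within slide 2 in 11 of the 18, and 10 were negative in both. Without marker-positive replicate 3 the difference was negative in 15, with a median of -0.33. The Klk1b genes are close relatives, so their probes may share signal and their differences are not independent.

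In 3 of the 18 tested kallikreins, all marker-positive arrays lay below all marker-negative ones, where 6.47% of all tested genes did. No tested serpin, Wfdc or Spink gene showed this at its brightest probe, so the 3 are 4.62% of all tested members. Klk1b9, which encodes a binding protein of epidermal growth factor, had log2 ratios of 0.56, 0.49 and 0.63 on marker-positive arrays, against a lowest of 0.93, a median of 1.14 and a highest of 1.52 on marker-negative arrays. The gap between the groups was wider than the spread of the marker-positive arrays, and the difference was -0.62 (SE 0.23, limma adjusted p = 0.170). Klk1b4, which encodes the alpha subunit of the nerve growth factor complex, had 0.35, 0.32 and 0.19 on marker-positive arrays, against a lowest of 0.40, a median of 0.81 and a highest of 1.85 on marker-negative arrays (difference -0.64, SE 0.31, limma adjusted p = 0.296). Klk14, a trypsin-like kallikrein, had 0.29, 0.23 and 0.07 on marker-positive arrays, against a lowest of 0.31, a median of 0.47 and a highest of 0.60 on marker-negative arrays (difference -0.28, SE 0.13, limma adjusted p = 0.278). None of these 3 kallikreins passed the test.

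The kallikrein with the most negative difference was Klk15, whose human counterpart can activate the precursor of prostate-specific antigen. Its log2 ratios were 0.59, 0.43 and 0.86 on marker-positive arrays, against a lowest of 0.66, a median of 2.40 and a highest of 2.61 on marker-negative arrays. Marker-negative replicates 4 (0.66) and 6 (1.22) were the low ones of their group, and replicate 4 lay within the marker-positive range. The mean was 0.63 ± 0.22 (SD, n = 3) in marker-positive and 1.98 ± 0.83 (SD, n = 6) in marker-negative cells, a difference of -1.35 (SE 0.48, limma adjusted p = 0.157). Its probe lies on chromosome 7, 40111315 to 40111374 (build mm7). The difference was -1.99 within slide 1 and -1.16 within slide 2.

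Klk8, which encodes neuropsin, varied more among arrays than between groups. It had 1.75, 4.43 and 2.91 on marker-positive arrays, against a lowest of 1.59, a median of 4.14 and a highest of 5.86 on marker-negative arrays. The groups overlapped over nearly their whole range, and the difference was -0.85 (SE 0.99, limma adjusted p = 0.698). It was -2.32 within slide 1 and 0.95 within slide 2. Klk1b24 showed a like spread, with 1.35, 2.87 and 0.96 on marker-positive arrays, against a lowest of 1.39, a median of 2.30 and a highest of 3.75 on marker-negative arrays (difference -0.83, SE 0.60, limma adjusted p = 0.501). Klk1, the tissue kallikrein that releases kinins, had 0.27, 0.45 and 0.98 on marker-positive arrays, against a lowest of 0.21, a median of 0.94 and a highest of 1.13 on marker-negative arrays (difference -0.22, limma adjusted p = 0.763).

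None of the remaining named kallikreins was called. Their differences were -0.26 for Klk7, a chymotrypsin-like protease of skin, -0.14 for Klk11, 0.37 for Klk4, the enamel matrix protease, and 0.20 for Klk10, with limma adjusted p-values of 0.635 to 0.853. Klkb1, plasma kallikrein of the clotting contact system, differed by -0.07 (limma adjusted p = 0.829). It belongs to the named set through its symbol, and its probe lies on chromosome 8. Probes of Klk5, Klk6, Klk9, Klk12, Klk1b1, Klk1b16 and Klk1b26 that carry these names cleared the background on no array and have only an upper bound in both fractions. A further Klk1b26 probe, listed under the older name Egfbp2 and so outside the rule, was well above background on 2 of 3 marker-positive and 5 of 6 marker-negative arrays, with a difference of 0.17 (limma adjusted p = 0.887).

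The Wfdc genes did not separate the groups, and several of them varied widely within a group. Wfdc3 had 3.23, 5.10 and 6.58 on marker-positive arrays, against a lowest of 6.34, a median of 6.86 and a highest of 7.28 on marker-negative arrays. Marker-positive replicates 1 and 2 lay below all marker-negative arrays, and replicate 3 lay among them. The difference was -1.85 (SE 0.60, limma adjusted p = 0.128). Wfdc3 did pass with Cy5 alone (-3.66, limma adjusted p = 0.0114), a fit that called 1.55% of all genes lower. With array weights it passed too (-2.59, limma adjusted p = 0.00692), in a fit that called 11.4% of all genes lower. Beside these it passed only without marker-positive replicate 3. A second Wfdc3 probe gave -0.16, -0.21 and 0.22 on marker-positive arrays, against a lowest of 0.01, a median of 0.40 and a highest of 0.87 on marker-negative arrays (difference -0.47, limma adjusted p = 0.321). Both probes thus had a negative difference, of different size.

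Wfdc2 is an epithelial secretory gene that is also expressed in ovarian carcinoma. It had 4.47, 4.47 and 4.14 on marker-positive arrays, against 0.90, 0.73, 3.45, 4.49, 1.03 and 4.88 on marker-negative replicates 1 to 6. The marker-positive arrays lay close together, marker-negative replicates 1, 2 and 5 lay well below them, and replicates 4 and 6 lay at or above them. The difference was 1.78 (SE 0.996, limma adjusted p = 0.368). It was 3.57 within slide 1 and 1.86 within slide 2.

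Wfdc15b, a small antimicrobial whey acidic protein of the male tract, had an even wider spread. It had 6.38, 6.61 and 0.37 on marker-positive arrays, against 3.21, 1.55, 6.34, 7.26, 0.82 and 7.98 on marker-negative replicates 1 to 6. The difference of -0.07 (SE 1.93, limma adjusted p = 0.991) therefore stands between groups whose own SDs were 3.54 (n = 3) and 3.06 (n = 6). Without marker-positive replicate 3 the sign turned, to 1.97 (limma adjusted p = 0.561). Marker-negative replicates 3, 4 and 6 were high for both Wfdc15b and Wfdc2, and replicates 1, 2 and 5 low.

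Some secretory genes of the seminal vesicle were high and low on the same arrays, and others were not. Probes for Wfdc15b and Svs2, a seminal vesicle secretory gene, lie 23.31 kb apart on chromosome 2 (build mm7), where the Svs genes stand between Wfdc15b and Wfdc2. Svs6 had 5.86, 5.52 and 7.45 on marker-positive arrays, against 0.50, 2.002, 6.81, 6.77, 0.06 and 7.39 on marker-negative replicates 1 to 6. Marker-negative replicates 3, 4 and 6 were high and replicates 1, 2 and 5 low, as for Wfdc2. Svs3a had 1.29, 2.80 and 6.96 on marker-positive arrays, against 0.16, 0.74, 0.29, 7.37, 0.24 and 7.71 on marker-negative arrays, so replicate 3 was low for it. Svs2 had 3.105, 2.43 and 1.39 on marker-positive arrays, against 4.43, 2.57, 4.01, 6.82, 4.53 and 7.42 on marker-negative arrays, so replicate 3 lay below replicates 1 and 5. Svs5 was high on every array, from 7.34 to 8.83, and marker-negative replicate 4 was its lowest. The seminal vesicle and epididymis marker list averaged 4.99 to 5.22 on marker-positive and 2.88 to 6.84 on marker-negative arrays, with 5 of 8 genes measured and none called by limma. The part of seminal vesicle RNA in the Wfdc values was not tested.

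**Figure D3:**
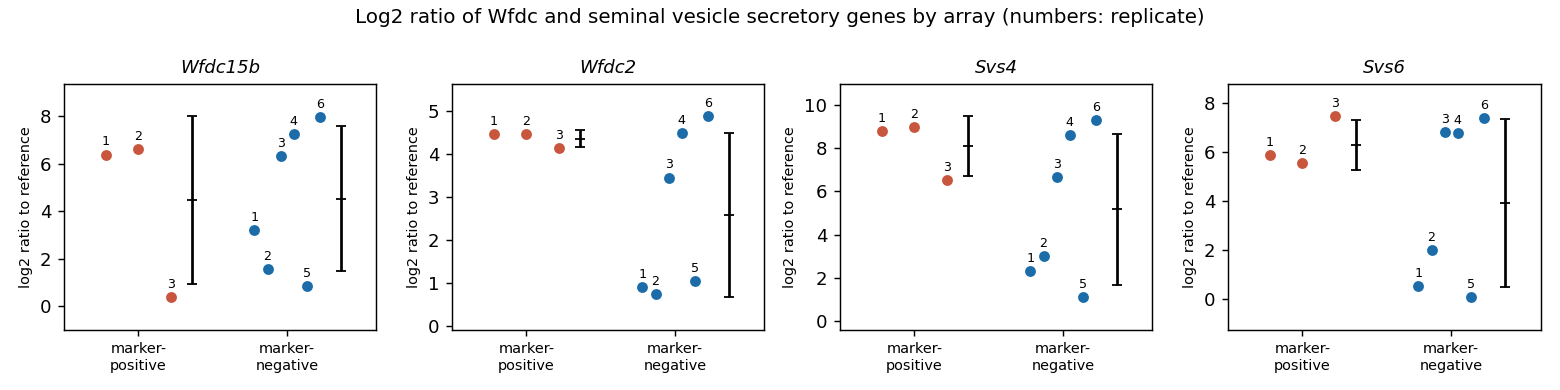
Log2 ratio of sorted cells over the pooled mouse RNA for Wfdc15b, Wfdc2 and the seminal vesicle secretory genes Svs4 and Svs6, 1 point an array with its replicate number, marker-positive left of marker-negative. Bars give the mean and SD of each group (n = 3 and n = 6). In all 4 panels marker-negative replicates 3, 4 and 6 lie above replicates 1, 2 and 5, an order that Svs2, Svs3a and Svs5 did not show.

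Wfdc1 encodes a protein first described as secreted by prostate stroma. It had 4.10, 4.72 and 0.24 on marker-positive arrays, against a lowest of 0.37, a median of 1.46 and a highest of 2.34 on marker-negative arrays. Marker-positive replicates 1 and 2 lay above every marker-negative array and replicate 3 below every one. The difference was 1.63 (SE 0.92, limma adjusted p = 0.370), and 3.01 without marker-positive replicate 3 (limma adjusted p = 0.0220). Wfdc12, an antibacterial family member, differed by -0.45 (limma adjusted p = 0.312) and Wfdc5 by -0.05 (limma adjusted p = 0.935).

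The pattern of Wfdc1 was shared by serpins of several roles. In 9 of the 65 members (13.8%) marker-positive replicates 1 and 2 lay above all marker-negative arrays and replicate 3 did not, against 8.48% of all tested genes. Among them were Wfdc1 and the serpins Serpina3c, Serpina3k, Serpinb2, Serpinb5, Serpinb6a, Serping1 and Serpinh1. Without replicate 3, 4 members were called higher by limma (Spink2, Wfdc1, Serpinb2 and Serpina3c), against 4.70% of all genes. Wfdc3 was called lower, against 2.51% of all genes, by -2.66 (limma adjusted p = 0.0157). A fit with 2 marker-positive arrays rests on the likeness of those arrays.

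**Figure D4:**
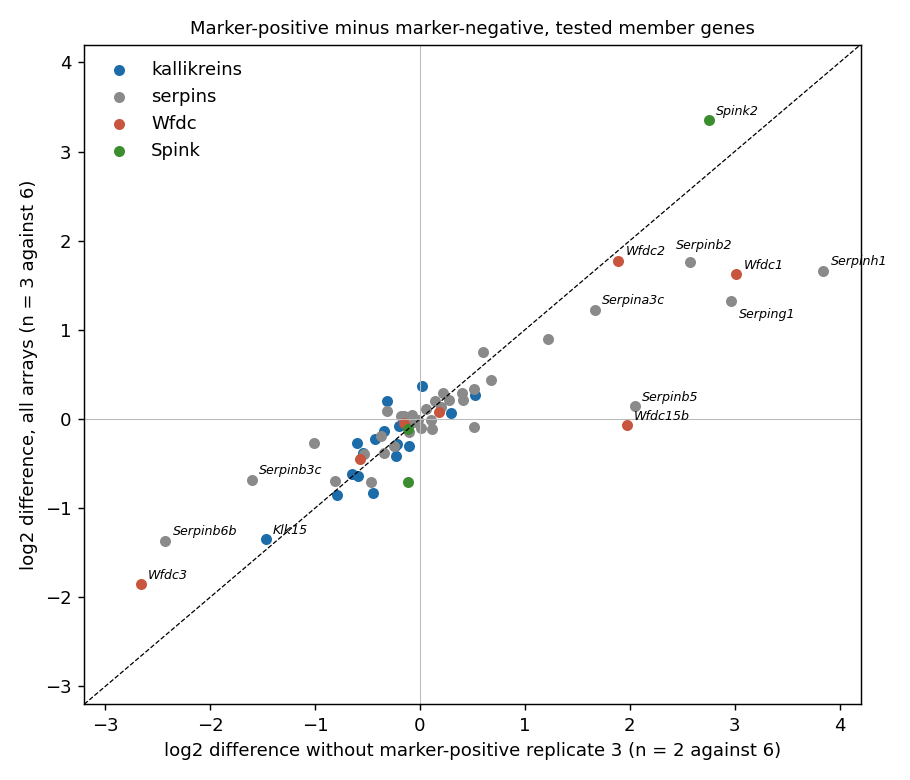
Difference in log2 ratio, marker-positive minus marker-negative, for 64 of the 65 tested members with all arrays (vertical axis) and without marker-positive replicate 3 (horizontal axis), coloured by family. The dashed line marks equal values. Serpinh1, Serping1, Wfdc1, Serpinb5 and Wfdc15b lie to the right of the line, so that their difference is larger without that array, and Spink2 lies to the left of it.

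Among the serpins no gene was called with all 9 arrays. Their median difference was 0.04 over 37 tested genes, from -1.37 to 1.76, with 21 positive and 16 negative. The 14 tested genes of clade a, the circulating serpins of the antitrypsin type, had a median of 0.01. The 16 of clade b, the intracellular ovalbumin type, had one of 0.13. Members of the Serpina1, Serpina3 and Serpinb clusters are near copies of each other, and their probes may share signal.

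Taking the brightest tested probe of each gene, Serpina3c, a mouse relative of antichymotrypsin, came closest to the threshold among the serpins. It had 1.99, 1.58 and 0.46 on marker-positive arrays, against a lowest of -0.07, a median of 0.04 and a highest of 0.52 on marker-negative arrays. Marker-negative replicate 4 alone reached into the marker-positive range. The difference was 1.23 (SE 0.31, limma adjusted p = 0.0634). Without marker-positive replicate 3 it was 1.67 (limma adjusted p = 0.00500), and it also passed with a background offset of 16 (1.48, limma adjusted p = 0.0487) and with Cy5 alone (1.13, limma adjusted p = 0.0420). Array weights gave a call too (1.68, limma adjusted p = 0.000905), in a fit that called 11.1% of all genes higher. Serpina3c was not called with processed signals, no background subtraction, median centring or slide as a block. Nor was it called with any other array left out. The probe lies on chromosome 12, 101641464 to 101641523 (build mm7).

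Serpina3n, an acute-phase serpin whose probe also lies on chromosome 12, was well above background on 2 of 3 marker-positive arrays. It was so on none of the marker-negative arrays, and was not tested. It had 2.33, 2.41 and -0.40 on marker-positive arrays, against a lowest of -0.59, a median of -0.25 and a highest of -0.03 on marker-negative arrays. Set against the lowest signals that were well above background, the marker-positive mean was at least 3.09-fold higher. The authors' deposited table lists Serpina3n with a stem over non-stem fold of 3.341 and an adjusted p of 0.0303. Serpina3g varied widely, with 0.82, 1.62 and 3.44 on marker-positive arrays, against a lowest of 0.06, a median of 1.89 and a highest of 4.02 on marker-negative arrays (difference -0.27, limma adjusted p = 0.914). Serpina5, the inhibitor of activated protein C, differed by -0.01 and Serpina6, the carrier of corticosteroids, by -0.19 (limma adjusted p = 0.980 and 0.650).

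Serpinb2, an inhibitor of plasminogen activators, was highest on marker-positive replicates 1 and 2. It had 2.85, 1.43 and -0.31 on marker-positive arrays, against a lowest of -0.77, a median of -0.62 and a highest of 0.63 on marker-negative arrays. The difference was 1.76 (SE 0.59, limma adjusted p = 0.139), and a second probe gave 1.47 (limma adjusted p = 0.141). Without marker-positive replicate 3 the first probe gave 2.58 (limma adjusted p = 0.0150). It was well above background on 2 marker-positive arrays and 1 marker-negative array. Marker-positive replicate 3 lay among the marker-negative arrays. Serpine2, a nexin that blocks thrombin and plasminogen activators, differed by -0.11 (limma adjusted p = 0.892), and Serpinf2, the plasmin inhibitor, by -0.12 (limma adjusted p = 0.896).

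Serpinh1 and Serping1 varied widely among the marker-positive arrays. Serpinh1, a collagen chaperone of the endoplasmic reticulum rather than an inhibitor, had 0.21, 0.73 and -6.07 on marker-positive arrays, against a lowest of -5.54, a median of -3.03 and a highest of -1.64 on marker-negative arrays. Replicate 3 was below every other array, and replicates 1 and 2 were above every marker-negative one. The difference was 1.67 (SE 1.47, limma adjusted p = 0.590). Serping1, which inhibits the first proteases of complement, had 5.48, 5.40 and 0.49 on marker-positive arrays, against a lowest of 1.03, a median of 2.04 and a highest of 4.18 on marker-negative arrays (difference 1.32, SE 1.13, limma adjusted p = 0.575). Without marker-positive replicate 3 the differences were 3.85 for Serpinh1 (limma adjusted p = 0.0604) and 2.97 for Serping1 (limma adjusted p = 0.0637). The fibroblast markers, 7 of 8 measured and none called by limma, averaged 1.16, 0.9995 and -3.80 on marker-positive replicates 1 to 3, against -4.03 to -0.59 on marker-negative arrays. The part of fibroblasts in these values was not tested.

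Serpinb5, which encodes maspin, a serpin of basal and myoepithelial cells that does not inhibit proteases in the usual way, had 4.83, 5.71 and -0.46 on marker-positive arrays. On the marker-negative arrays its lowest was 1.95, its median 3.21 and its highest 4.67. Replicate 3 was the lowest of all arrays and was not well above background, while replicates 1 and 2 were the highest. The group means of 3.36 ± 3.33 (SD, n = 3) in marker-positive and 3.22 ± 1.09 (SD, n = 6) in marker-negative cells differed by 0.14 (limma adjusted p = 0.969). Without replicate 3 the difference was 2.05 (limma adjusted p = 0.139). The basal marker list given above was also highest on replicates 1 and 2. On replicate 3 that list averaged 0.26, within its marker-negative range of 0.14 to 1.83, whereas Serpinb5 lay below every marker-negative array. Of the list 1 of 10 genes was called higher by limma, and the part of basal cells was not tested.

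Intracellular inhibitors of leukocyte proteases did not pass in either direction. Serpinb6a, whose human counterpart inhibits cathepsin G, had -0.90, -1.66 and -2.26 on marker-positive arrays, against a lowest of -2.95, a median of -2.66 and a highest of -1.81 on marker-negative arrays (difference 0.89, SE 0.36, limma adjusted p = 0.207). Its relative Serpinb6b had -1.41, -1.20 and 1.88 on marker-positive arrays, against a lowest of -0.25, a median of 1.38 and a highest of 2.67 on marker-negative arrays (difference -1.37, SE 0.86, limma adjusted p = 0.426). For Serpinb6b replicates 1 and 2 lay below all marker-negative arrays and replicate 3 lay among them. Serpinb9, which inhibits granzyme B, differed by -0.39 and by 0.06 at its 2 probes (limma adjusted p = 0.534 and 0.933). Serpinb1a, an inhibitor of neutrophil elastase, differed by 0.44 (limma adjusted p = 0.723), and Serpinb11 by -0.70 (limma adjusted p = 0.570).

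Serpinb3c, a relative of the human squamous cell carcinoma antigens, had 1.54, 1.62 and 4.34 on marker-positive arrays, against a lowest of 2.38, a median of 2.94 and a highest of 4.48 on marker-negative arrays (difference -0.68, SE 0.71, limma adjusted p = 0.656). Replicates 1 and 2 were below all marker-negative arrays. Serpinb8, an inhibitor of furin, gave opposite signs at its 2 probes. The brighter probe differed by -0.39 (limma adjusted p = 0.728). The other was well above background on 3 of 3 marker-positive and no marker-negative arrays, with a difference of 0.67 (limma adjusted p = 0.0534). At that probe all marker-positive arrays (0.50, 0.16 and 0.75) lay above all marker-negative ones (highest 0.0057). Antithrombin (Serpinc1) differed by -0.70 and by 0.05 at its 2 probes (limma adjusted p = 0.318 and 0.849) and neuroserpin (Serpini1) by -0.09 (limma adjusted p = 0.961). Of 22 members with several probes, 9 had at least 2 tested ones, and in 4 of these the probes differed in sign.

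Other proteases, inhibitors and receptors of these pathways were called in both directions. Of 67 listed genes 53 were measured, and marker-positive cells had 5 of these higher and 6 lower (limma), where 1.57% of all tested genes were higher and 1.67% lower. Their median difference was 0.23. The list includes leukocyte proteases, and whether it differs from the members was not tested. Without marker-positive replicate 3, 13 were higher and 5 lower, where 4.70% of all genes were higher and 2.51% lower. Without replicate 1 or replicate 2 the counts were 2 and 3. Of all genes 0.494% were higher without replicate 1 and 0.574% without replicate 2, and 0.453% and 0.438% were lower. Without marker-negative replicate 1, 2, 5 or 6, 2 were higher, where 0.806% to 1.01% of all genes were. Without marker-negative replicate 4, 3 were higher, where 1.53% of all genes were. Among 27 listed serine proteases and coagulation genes 3 were higher, coagulation factor F10, the mast cell tryptase Tpsb2 and cathepsin G (Ctsg). F10 had 3.17, 3.24 and 3.90 on marker-positive arrays, against -0.50 to 0.12 on marker-negative arrays (difference 3.68, SE 0.25, limma adjusted p = 0.000198). All 3 marker-positive arrays were far above the others. Ctsg differed by 2.18 (limma adjusted p = 0.0499).

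The serine proteases called lower were Tmprss2 and the granzymes Gzma, Gzmb and Gzmc, of which Gzma and Gzmb are among the T and NK cell markers above. Gzmc was well above background on 6 of 6 marker-negative arrays and on no marker-positive one. Tmprss2, an androgen-responsive membrane protease of prostate luminal cells, had 3.28, 3.60 and 4.38 on marker-positive arrays, against 4.97 to 6.50 on marker-negative arrays (difference -2.28, SE 0.39, limma adjusted p = 0.0150). The groups did not overlap. Of 17 listed inhibitors that the naming rule left out, Wfdc18 among them, none was higher and 2 were lower by limma. The 2 were the Kunitz inhibitor Spint2 (-1.63, limma adjusted p = 0.0477) and the cystatin relative Stfa3 (-2.60, limma adjusted p = 0.0287). Of 9 receptors 2 were higher, thrombomodulin (Thbd, 4.24, limma adjusted p = 0.0396) and Lrp1 (1.89, limma adjusted p = 0.0466), a receptor that clears serpin and protease complexes.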

How the data were processed

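Cy5 and Cy3 spot intensity values were read from the deposited scanner files. Per the submitters' processing notes, they were written by Agilent's Feature Extraction, version 10.7. The log10 ratio that is also listed per the file headers was not used. In the authors' deposited table each probe has a p-value, a log2 difference, a limma score and a signed fold. Its log2 difference runs non-stem minus stem, opposite to its fold. Its normalization: not given in the sources used here.

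Here the mean intensities were corrected by normexp (limma 3.58.1, R 4.3.3) with an offset of 50, normalized by loess within arrays, leaving control and outlier spots out of the curve, and averaged over spots of a probe. The 28332 probes whose Cy5 cleared the background on 3 or more arrays were tested with limma's moderated test (trend, robust, two-sided), with Benjamini-Hochberg adjustment over all of them and a threshold of 0.05. A gene was represented by its brightest tested probe. A probe below that level on every array of one group has a bound, set against the lowest signal well above background. Members were matched to RefSeq by systematic name (96 probes), accession (2) or current symbol (13). The first replicates of both groups shared slide 1, and slide 2 held marker-positive 2 with marker-negative 2 and 4. Replicate numbers follow the order of deposit.

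Named genes were the called member, in each family those of largest difference among groups that did not overlap, those of highest mean ratio, and a fixed list of well-known members. Serpina3c is described although it met none of these rules. It was thus outside the search for outlying arrays and the counts of values of named genes below. The members, lists and rules were chosen with earlier results of these data known. The procedure was tested on simulated data. Plots used matplotlib 3.10.9. The values of 1 tested member are not reported here.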

Additional observations from a re-analysis of the deposited data

Results flagged for a closer look

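Among 40 named genes, 4 had 1 marker-negative array far from the other 5 by Dixon's test, which chance alone gives for about 1 in 20 groups. Serpinb2 reached 0.63 on marker-negative replicate 4, against -0.50 on the nearest array. Serpinf2 reached 2.84 on the same array, against 2.09. Serpine2 reached 1.25 on marker-negative replicate 6, against 0.33, and was well above background on 1 of the 6 marker-negative arrays. Spink4 reached 0.59 on marker-negative replicate 3, against 0.18.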

How the results depend on the processing

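No paired analysis was possible because the labels give no replicate numbers, while slides 1 and 2, which held arrays of both groups, served as blocks. The Spink2 call held under all alternatives in which it was tested, except on slides 1 and 2 alone, with differences of 2.59 to 4.56 and limma adjusted p-values of 0.000551 to 0.0859. It was not tested when detection in both channels on all arrays was required, where 0 members were called higher. That setting called 1.95% of its 12283 tested genes higher and 2.74% lower. Members called higher numbered 2 with an offset of 16 or Cy5 alone, 10 with array weights and 0 on slides 1 and 2 alone. Of all genes the offset of 16 called 1.54% higher, Cy5 alone 1.43% and slides 1 and 2 alone 0%. Members called lower numbered 1 with Cy5 alone, which called 1.55% of all genes lower. They numbered 4 with array weights, a fit that called 11.1% of all genes higher and 11.4% lower. Leaving out 1 array gave 1 to 4 members higher and 0 to 1 lower, where 0.494% to 4.70% of all genes were higher and 0.438% to 2.51% lower. Network genes called higher numbered 3 with no detection filter, 23 with array weights and 0 on slides 1 and 2 alone. Those called lower numbered 3 with both channels required, 10 with array weights, 1 with slide as a fixed block and 0 on slides 1 and 2 alone. Of all genes the fit with no detection filter called 0.795% higher, and slide as a fixed block called 0.101% lower. Leaving out 1 array gave 2 to 13 network genes higher and 3 to 7 lower.

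No gene whose sign turned was called. Serpinb5 was -0.92 with processed signals and -0.14 with an offset of 16. Wfdc15b was 0.35 with median centring, 0.30 with Cy5 alone, 2.48 with array weights, 0.15 with slide as a random block, and 2.62 with it as a fixed block or on slides 1 and 2 alone. Serpina5 was 0.0049 with median centring, 0.15 with Cy5 alone and 0.035 with array weights. With array weights Klk10 was -0.070, Serpine2 0.15 and Serpinf2 0.17. With slide as a fixed block, and equally on slides 1 and 2 alone, Klk10 was -0.14, Serpine2 0.25, Serpinf2 0.031, Klk1b24 0.31 and Wfdc5 0.079. The mean of its probes gave 0.14 for Serpinb8. Leaving out 1 array, values ran from -0.31 to 0.46 for Klk10, -0.20 to 0.030 for Klkb1, -1.01 to 0.30 for Serpina3g, -0.075 to 0.11 for Serpina5, -1.03 to 2.05 for Serpinb5 and -0.67 to 0.028 for Serpinb8. They ran from -0.23 to 0.093 for Serpine2, -0.27 to 0.12 for Serpinf2, -0.52 to 0.51 for Serpini1, -1.15 to 1.97 for Wfdc15b and -0.15 to 0.030 for Wfdc5. The causes were not tested. Of 865 values of named genes under alternatives, 797 kept their sign and their side of the threshold. Of the 65 tested members 36 were well above background on all 9 arrays, which limits what can be said of the rest.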

Other observations

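Other relatives of the families lie on the array under older names. Wfdc18, listed under its older name Expi, is a whey acidic protein known from the mammary gland. Its 2 probes had a difference of 2.17 and 2.39 (limma adjusted p = 0.143 and 0.146), with 3.25, 2.60 and 4.99 on marker-positive arrays at the first probe, against a lowest of 0.25, a median of 1.18 and a highest of 3.52 on marker-negative arrays. Marker-negative replicate 4 (3.52) lay within the marker-positive range. Wfdc15a had 2.15, 2.47 and -0.27 on marker-positive arrays, against 0.58, 0.43, 0.77, 3.27, 0.20 and 4.07 on marker-negative replicates 1 to 6 (difference -0.10, limma adjusted p = 0.971). Spinkl had 1.38, 1.56 and 0.26 on marker-positive arrays, against 2.46 and 2.98 on marker-negative replicates 4 and 6 and at most 0.17 on the other marker-negative arrays. Among marker-negative arrays both were thus highest on marker-negative replicates 4 and 6, as were Wfdc2 and Wfdc15b.

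The authors' deposited table lists some member probes at an adjusted p under 0.05, and the share over all its probes was not counted here. Beside Serpina3n these are Spink2 with a fold of 10.18 (adjusted p = 0.0135), Serpinb8 with 1.602 (0.0403) and Klk15 with -2.554 (0.0480), all in that table. Of these only Spink2 passed in the fit used here, where Serpina3n was not tested.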
